A study of Homo sapiens with 3 samples.

Results

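The response to compound 1 was measured by mRNA sequencing in HCC827 cells, a human line from a lung adenocarcinoma with an activating EGFR mutation. One library came from cells given compound 1 (5 μM, 24 h), and 1 from cells given the vehicle DMSO, for which the labels state no time. The series also holds 1 library of compound 2 (5 μM, 24 h), which is used here for the abundance filter and as a side value. The series title calls the compounds daphnane diterpenoids and links them to the DNA damage response that ATR directs, and no clone, genotype change or other agent is given for any library. The comparison covers 11600 of the 20332 genes in the deposited table, namely those whose level averaged 1 TPM or more across the 3 libraries (TPM is the share of all length-corrected signal that a gene takes). For each gene a log2 ratio of TPM + 1, compound 1 over DMSO, was taken, and a gene counted as at least 2-fold higher or lower when this ratio reached 1 or -1. With a single library for each condition the replicate error is unknown, no p-value or interval can be given, and every difference below is one between 2 libraries.

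Daphnane diterpenoids are plant molecules, and some of them, such as mezerein, are known to activate protein kinase C in the way phorbol esters do. ATR is a kinase that is recruited to single-stranded DNA at stalled replication forks and that activates CHK1. The gene groups below follow these subjects in turn: secreted proteases and adhesion, growth factor and cytokine signalling, amino acid and redox stress, cell division, DNA repair, metabolism, and epithelial identity.

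The library identity was checked against marker genes. All 10 epithelial markers were measured, of which 1 was at least 2-fold higher and 3 lower (median -0.24), beside 14.7% and 8.09% of all measured genes, with a summed level of 8988 TPM after compound 1 and 16209 TPM in DMSO. EPCAM stood at 778 TPM after compound 1 and 611 TPM in DMSO, and CLDN7 was the 1 higher, at 769.6 TPM after compound 1, against 349 TPM in DMSO (log2 ratio 1.14). KRT8, KRT18 and MUC1 were the 3 lower, with log2 ratios of -1.75, -1.18 and -1.33. Of 12 leukocyte markers only LYZ passed the abundance filter, at 1.52 TPM after compound 1 and 1.86 TPM in DMSO, and none of 6 endothelial markers did. Among 8 fibroblast markers ACTA2 and COL1A1 passed, each below 2 TPM in both libraries. Signal steps of low genes put the worth of 1 read on a 2 kb transcript near 0.054 TPM in the compound 1 library and 0.058 TPM in the DMSO library. Under that estimate, 1 TPM on such a transcript would rest on about 18.6 reads after compound 1 and 17.2 reads in DMSO.

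Compound 1 was accompanied by more genes past 2-fold on the higher side. Of the 11600 genes, 1707 (14.7%) were at least 2-fold higher after compound 1 and 939 (8.09%) at least 2-fold lower, while 8954 (77.2%) stayed within 2-fold. Beyond 4-fold the counts were 272 higher and 190 lower, beyond 8-fold 53 and 21, and beyond 16-fold 16 and 4. The median log2 ratio was 0.11, with quartiles at -0.41 and 0.67. After removal of the trend across length and GC content the counts were 973 higher and 1040 lower, so that 48.3% of the genes past 2-fold were on the higher side, beside 64.5% without it, and with a pseudocount of 5 they were 985 and 560. The genes at least 2-fold higher took 15.4% of all signal after compound 1 and 5.17% in DMSO. The genes at least 2-fold lower took 5.06% after compound 1 and 13.4% in DMSO. By abundance, the share at least 2-fold higher was greatest, at 17.8%, among genes with a mean of 5 to 20 TPM, and smallest, at 8.92%, among genes with a mean of 1000 TPM or more.

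**Figure D1:**
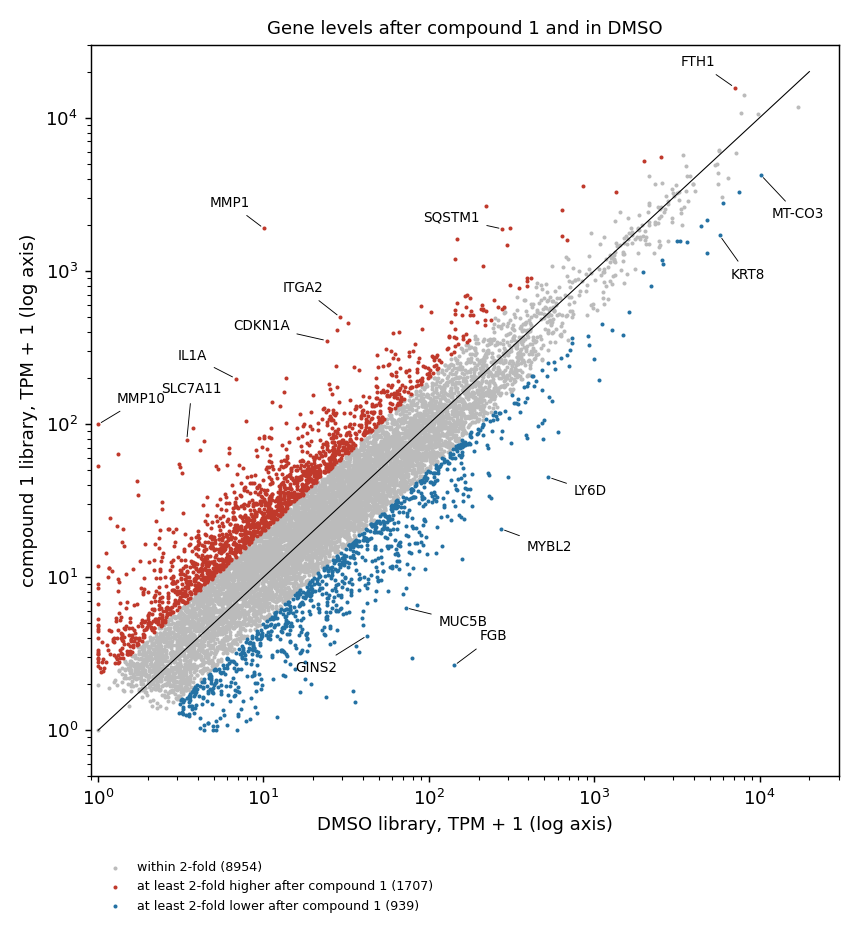
Level of each of 11600 genes in the compound 1 library (vertical axis, TPM + 1, log scale) against its level in the DMSO library (horizontal axis, TPM + 1, log scale), 1 point per gene, with the line of equal levels. The 1707 genes at least 2-fold higher after compound 1 lie above the line, with MMP1 farthest from it, and the 939 genes at least 2-fold lower lie below it, with FGB farthest.

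The largest gains in level fell on abundant genes of iron storage, translation and the cell surface. FTH1, the ferritin heavy chain, was at 15729.6 TPM after compound 1, against 7069 TPM in DMSO, and compound 2 gave 9605 TPM. Values after compound 2 are given beside some genes, and both compounds share the 1 DMSO library. EEF1A1, a translation elongation factor, was at 14020.2 TPM after compound 1, against 7999 TPM in DMSO, a log2 ratio of 0.81, with 11909.9 TPM after compound 2. MT2A, a metallothionein that binds zinc, was at 5226 TPM after compound 1, against 1999 TPM in DMSO (6496 TPM after compound 2). These are abundant transcripts, and the first and the third were also past 2-fold. SEC61G, a subunit of the protein channel of the endoplasmic reticulum, was at 10712 TPM after compound 1, against 7674 TPM in DMSO (log2 ratio 0.48), and TXNRD1, thioredoxin reductase, at 3559 TPM after compound 1, against 857 TPM in DMSO (log2 ratio 2.05). ANXA2 was at 5704 TPM after compound 1, against 3418 TPM in DMSO (log2 ratio 0.74) and ANXA1 at 3252 TPM after compound 1, against 1351 TPM in DMSO (log2 ratio 1.27), both annexins, which bind membranes in a calcium-dependent way. TPT1, a growth-related protein of many cell types, was at 4165 TPM after compound 1, against 2132 TPM in DMSO (log2 ratio 0.97). After compound 2 these 5 genes stood at 8895, 3143, 7148, 2237 and 3604 TPM.

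The largest losses in level fell on mitochondrial, glycolytic and cytoskeletal genes. KRT8, keratin 8 of simple epithelia, was at 1702 TPM after compound 1, against 5735 TPM in DMSO, with 1385 TPM after compound 2. TUBA1B, an alpha tubulin, was at 1298 TPM after compound 1, against 4797 TPM in DMSO, with 2163 TPM after compound 2. CDK4, the kinase that works with D-type cyclins in G1, was at 2758 TPM after compound 1, against 5995 TPM in DMSO (log2 ratio -1.12), and compound 2 gave 2973 TPM. Abundant genes share sequence with pseudogenes or other loci, with 49.5% of the 31-base words of GAPDH, 43.2% of KRT18, 34.6% of KRT8 and 33.6% of EEF1A1 found elsewhere. The 10 largest losses made up 18.5% of the summed loss of all genes, and the 10 largest gains 17.8% of the summed gain, so most of the gain and of the loss was spread over other genes.

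Proteases that cut collagen and other matrix proteins held some of the ratios farthest from 0. MMP1, interstitial collagenase, had the highest ratio of all, at 1893 TPM after compound 1, against 9.04 TPM in DMSO (log2 ratio 7.56), and compound 2 gave 1852 TPM. MMP10, stromelysin 2 (ENSG00000166670, chromosome 11, 102770503 to 102780628), was at 98.4 TPM after compound 1 and listed at 0 in DMSO. MMP9, gelatinase B, was at 7.97 TPM after compound 1 and also listed at 0 in DMSO. The proteases lay on both sides: MMP7, matrilysin, was at 7.5 TPM after compound 1, against 71.5 TPM in DMSO (log2 ratio -3.09), and MMP24, a membrane-bound member, at 13.4 TPM after compound 1, against 76.8 TPM in DMSO (log2 ratio -2.43). The 3 measured inhibitor genes TIMP1, TIMP2 and TIMP4 lay within 2-fold, with log2 ratios of 0.80, 0.65 and 0.69. Of the 9 measured members, 3 were thus at least 2-fold higher and 2 lower (median 0.69), and 5 were higher after removal of the length and GC trend. MMP10 and MMP9, at 0 in DMSO, passed the abundance filter only through the treated libraries. Without that filter, among members above 0 in either library, 3 of 19 were higher and 2 lower, and the median was 0.03.

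Among laminins, which anchor epithelial cells to the basement membrane, LAMB3 was at 1622 TPM after compound 1, against 146 TPM in DMSO (log2 ratio 3.46) and LAMA3 at 417 TPM after compound 1, against 90.4 TPM in DMSO (log2 ratio 2.19). Both chains were thus past 4-fold. Another 4 measured laminin chains lay between log2 ratios of -0.42 and 0.84 and summed to 236 TPM after compound 1 and 261 TPM in DMSO. Among integrins, the receptors that bind laminins and collagens, ITGA2, the alpha chain of the collagen receptor (ENSG00000164171, chromosome 5, 52989326 to 53094779), was at 498 TPM after compound 1, against 28 TPM in DMSO (log2 ratio 4.11), with 482 TPM after compound 2. ITGA6, which pairs with beta 4 in hemidesmosomes, was at 199 TPM after compound 1, against 47 TPM in DMSO (log2 ratio 2.06), and ITGAV at 47.7 TPM after compound 1, against 9.66 TPM in DMSO (log2 ratio 2.19). Of the 6 measured alpha chains 4 were at least 2-fold higher, whereas the 4 measured beta chains lay between -0.12 and 0.86. In the list of laminins, integrins and hemidesmosome genes, 7 of 20 were at least 2-fold higher and 0 lower, with a median of 0.85 beside 0.11 over all genes. After removal of the length and GC trend 6 were higher and 0 lower, with a median of 0.40 beside 0 over all genes.

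Genes of plasminogen activation and of the clade B serpins, which inhibit serine proteases inside cells, were often higher. PLAU, the urokinase that turns plasminogen into plasmin, was at 2512 TPM after compound 1, against 642 TPM in DMSO, and PLAUR, its receptor, at 679 TPM after compound 1, against 165 TPM in DMSO (log2 ratio 2.03). SERPINB7 was at 75.9 TPM after compound 1, against 3.39 TPM in DMSO (log2 ratio 4.13), with 128 TPM after compound 2, and SERPINB1, an elastase inhibitor, at 465 TPM after compound 1, against 134 TPM in DMSO (log2 ratio 1.78). SERPINB2, plasminogen activator inhibitor 2, was listed at 0 in DMSO and stood at 3.44 TPM after compound 1. SERPINB4 was at 161 TPM after compound 1 and 50.3 TPM in DMSO (log2 ratio 1.66), and 40% of its 31-base words also occur in another gene, with SERPINB3 the closest, which leaves its split from SERPINB3 uncertain. PLAT, the tissue activator, was the 1 lower member, at 0.572 TPM after compound 1, against 2.18 TPM in DMSO. Of 13 measured members 7 were at least 2-fold higher (median 1.43), and 6 with a pseudocount of 5 (median 0.76). SERPINB2, at 0 in DMSO, passed the abundance filter only through the treated libraries. Without that filter, among members above 0 in either library, 7 of 15 were higher and 1 lower, and the median was 0.72.

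**Figure D2:**
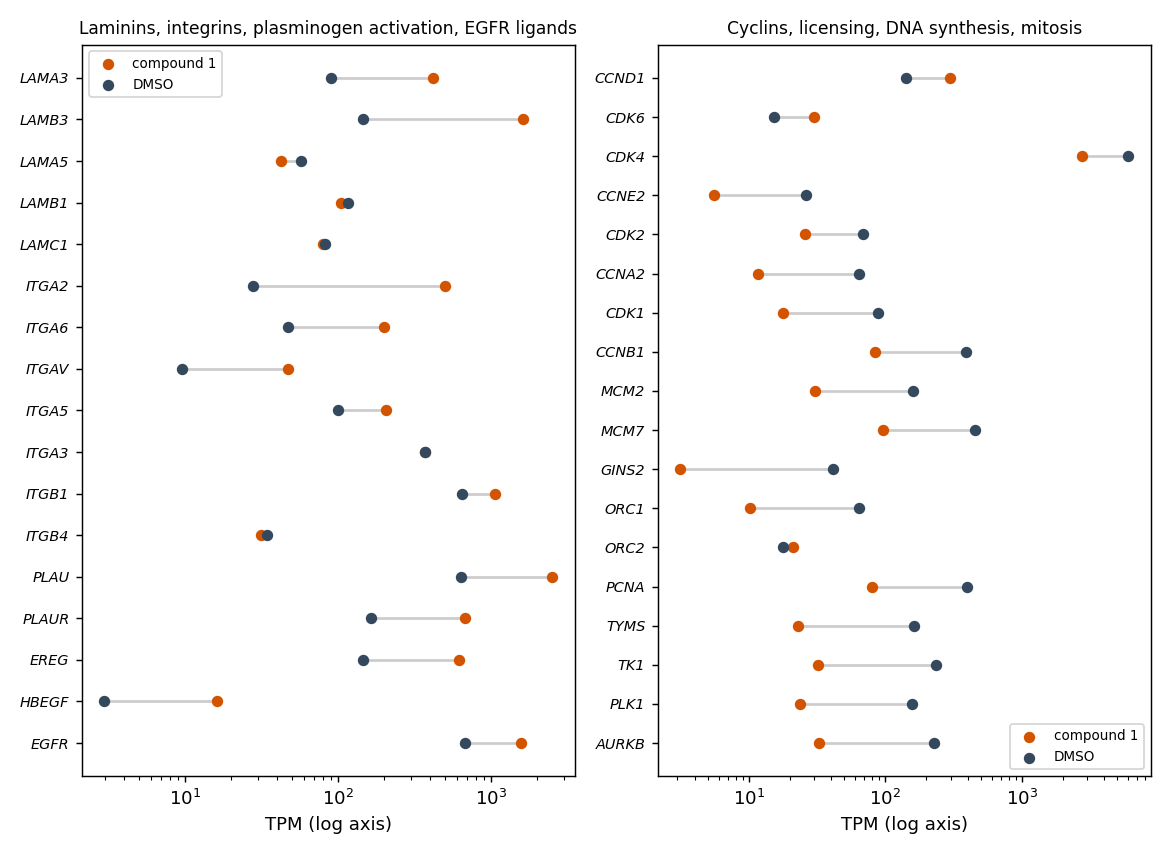
Levels of 35 genes in the compound 1 library (orange) and the DMSO library (dark blue), in TPM on a log axis, with 1 row per gene and a grey line joining its 2 values. On the left, the laminin chains LAMA3 and LAMB3 and integrin ITGA2 lie far to the right after compound 1, while LAMB1, LAMC1, ITGA3 and ITGB4 nearly overlap. On the right, CCND1, CDK6 and ORC2 lie higher after compound 1 and the other 15 genes lower.

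EGFR signalling genes were higher from ligand to feedback. EGFR itself, the receptor whose mutation drives this line, was at 1579 TPM after compound 1, against 679.9 TPM in DMSO (log2 ratio 1.21), and the EGFR log2 ratio was 0.60 after removal of the length and GC trend. Among its ligands, HBEGF was at 16.2 TPM after compound 1, against 2.99 TPM in DMSO (log2 ratio 2.11) and EREG at 619.6 TPM after compound 1, against 146 TPM in DMSO (log2 ratio 2.07). ADAM17 and ADAM10, the membrane proteases that release EGFR ligands, were at 75.9 TPM after compound 1, against 18.4 TPM in DMSO, and at 130.3 TPM after compound 1, against 37.5 TPM in DMSO. ERRFI1, an inhibitor of EGFR, was at 581 TPM after compound 1, against 166 TPM in DMSO (log2 ratio 1.80). In the list of ligands and ERBB receptors, 7 of 12 were at least 2-fold higher and 0 lower (median 1.25), and ERBB2 had a log2 ratio of -0.76. After removal of the length and GC trend 5 of the list were higher and 0 lower (median 0.68).

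Genes of dual-specificity phosphatases and Sprouty proteins were higher as well. Of 9 measured dual-specificity phosphatases 6 were at least 2-fold higher, led by DUSP5, an ERK phosphatase of the nucleus, at 238 TPM after compound 1, against 26.6 TPM in DMSO (log2 ratio 3.11). DUSP1 was at 40.3 TPM after compound 1, against 6.32 TPM in DMSO (log2 ratio 2.50) and DUSP10 at 23.4 TPM after compound 1, against 4.47 TPM in DMSO (log2 ratio 2.16). SPRY4, a Sprouty inhibitor of receptor tyrosine kinase signalling, was at 23.1 TPM after compound 1, against 5.12 TPM in DMSO (log2 ratio 1.98). In the full list of phosphatase and Sprouty genes, 9 of 16 were at least 2-fold higher and 0 lower (median 1.21). In the list of AP-1 and early response factors the median was 0.94: ATF3 was at 82.2 TPM after compound 1, against 9.07 TPM in DMSO (log2 ratio 3.05) and EGR1, an ERK target, at 52.4 TPM after compound 1, against 12.6 TPM in DMSO (log2 ratio 1.98), and 7 of 15 measured members passed 2-fold (4 with a pseudocount of 5). The small MAF genes MAFG and MAFF had log2 ratios of 1.69 and 1.34. Kruppel-like factors, zinc finger regulators of epithelial differentiation, were higher in 7 of 10 (median 1.36), among them KLF6 at 93.4 TPM after compound 1, against 10.1 TPM in DMSO (log2 ratio 3.09), KLF3 at 52.3 TPM after compound 1, against 14.9 TPM in DMSO (log2 ratio 1.74) and KLF5 at 123 TPM after compound 1, against 39.2 TPM in DMSO (log2 ratio 1.63).

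Protein kinase C genes lay closer to DMSO. Of 17 measured genes of protein kinase C and diacylglycerol signalling 4 were at least 2-fold higher (23.5%, against 14.7% of all genes) and 0 lower, and 2 were higher with a pseudocount of 5 or after removal of the length and GC trend. RASGRP3, a RAS activator that binds diacylglycerol, was at 16 TPM after compound 1, against 3.64 TPM in DMSO (log2 ratio 1.87). PRKCI, an atypical isoform that does not bind diacylglycerol, was at 49.7 TPM after compound 1, against 17.4 TPM in DMSO (log2 ratio 1.46). PRKCD, a diacylglycerol-responsive isoform, was at 54.3 TPM after compound 1 and 27.1 TPM in DMSO and lay just inside 2-fold (log2 ratio 0.97). DGKE and DGKA, which remove diacylglycerol by phosphorylation, had log2 ratios of 1.31 and 1.07.

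Interleukin 1 genes were higher together with other secreted cytokines. IL1A was at 197 TPM after compound 1, against 5.79 TPM in DMSO (log2 ratio 4.87), below the 493 TPM after compound 2, and IL1B at 34.8 TPM after compound 1, against 5.60 TPM in DMSO (log2 ratio 2.44). IL1RL1, IL36B, IL36G and IL37 were listed at 0 in DMSO and stood at 2.17, 2.13, 1.96 and 1.62 TPM after compound 1. With IL1RN, the natural antagonist of the receptor, at 9.31 TPM after compound 1 and 2.35 TPM in DMSO, 7 of 13 measured members were at least 2-fold higher and 0 lower. The 4 genes at 0 in DMSO passed the abundance filter only through the treated libraries, IL36G and IL37 only with compound 2 included, and with the filter on compound 1 and DMSO alone the count was 5 of 11. It was 2 with a pseudocount of 5 and 3 among genes that averaged 5 TPM or more, since most of these genes were low.

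Among other cytokines and their receptors, 11 of 23 measured members were at least 2-fold higher and 0 lower (median 0.72). IL6ST, the receptor chain gp130 that IL6 family cytokines share, was at 154 TPM after compound 1, against 19 TPM in DMSO (log2 ratio 2.96), and IL11 at 18.2 TPM after compound 1, against 3.40 TPM in DMSO (log2 ratio 2.12). IL23A, a subunit of interleukin 23, was at 51.1 TPM after compound 1, against 2.12 TPM in DMSO, with 75.8 TPM after compound 2, and IL32 at 26.9 TPM after compound 1, against 1.42 TPM in DMSO (log2 ratio 3.52). IL13RA2, a decoy receptor of interleukin 13, was at 23.5 TPM after compound 1, against 0.173 TPM in DMSO, with 18.8 TPM after compound 2. CSF2, the gene of GM-CSF, was at 104 TPM after compound 1, against 24.7 TPM in DMSO (log2 ratio 2.04). Chemokines split instead: CXCL8, a neutrophil attractant, was at 412 TPM after compound 1, against 26.9 TPM in DMSO (733 TPM after compound 2), while its relative CXCL1 was at 30.3 TPM after compound 1, against 109.9 TPM in DMSO (log2 ratio -1.82) and CX3CL1 at 3.34 TPM after compound 1, against 17.3 TPM in DMSO (log2 ratio -2.08). CXCL3 and CCL20 were higher, with log2 ratios of 1.20 and 1.22, and CXCL5, the most abundant chemokine here, was at 521 TPM after compound 1 and 615 TPM in DMSO (log2 ratio -0.24).

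Among NF-kB pathway genes, inhibitors and non-canonical subunits held the highest ratios. TNFAIP3, which encodes the inhibitor A20, was at 50.8 TPM after compound 1, against 6.54 TPM in DMSO (log2 ratio 2.78), and CYLD, another deubiquitinase that restrains the pathway, at 40.1 TPM after compound 1, against 7.52 TPM in DMSO (log2 ratio 2.27). RELB was at 28.1 TPM after compound 1, against 5.85 TPM in DMSO (log2 ratio 2.09) and its partner NFKB2 at 85.3 TPM after compound 1, against 25.2 TPM in DMSO (log2 ratio 1.72). MAP3K14, the kinase that starts the non-canonical branch, was lower, at 9.28 TPM after compound 1, against 24.8 TPM in DMSO (log2 ratio -1.33). Of 20 measured members 7 were at least 2-fold higher and 1 lower (median 0.77). In the TNF family, TRAF1, an adaptor, was at 41.7 TPM after compound 1, against 0.726 TPM in DMSO (104 TPM after compound 2), and the ligand gene TNFSF15 at 66.5 TPM after compound 1, against 3.15 TPM in DMSO (62.5 TPM after compound 2). TNFRSF9 was at 15.4 TPM after compound 1, against 1.19 TPM in DMSO (log2 ratio 2.90) and the death receptor gene TNFRSF10A at 68.1 TPM after compound 1, against 23.1 TPM in DMSO (log2 ratio 1.52). Another adaptor, TRAF2, was lower, at 19.7 TPM after compound 1, against 46 TPM in DMSO (log2 ratio -1.18). Of the 21 measured members of that family, 7 were at least 2-fold higher (4 with a pseudocount of 5) and 1 lower.

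Prostaglandin genes showed both directions. PTGS2, the inducible cyclooxygenase, was at 92.7 TPM after compound 1, against 2.75 TPM in DMSO (log2 ratio 4.65), with 71 TPM after compound 2. PTGS1, the constitutive cyclooxygenase, was at 13 TPM after compound 1, against 64.5 TPM in DMSO (log2 ratio -2.22), and SLCO2A1, a prostaglandin transporter, at 0.767 TPM after compound 1, against 15.6 TPM in DMSO (log2 ratio -3.23), with 0.533 TPM after compound 2. HPGD, which breaks prostaglandins down, was at 285 TPM after compound 1, against 136 TPM in DMSO (log2 ratio 1.07). Counts in this list were 3 higher and 2 lower of 11 measured members.

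**Figure D3:**
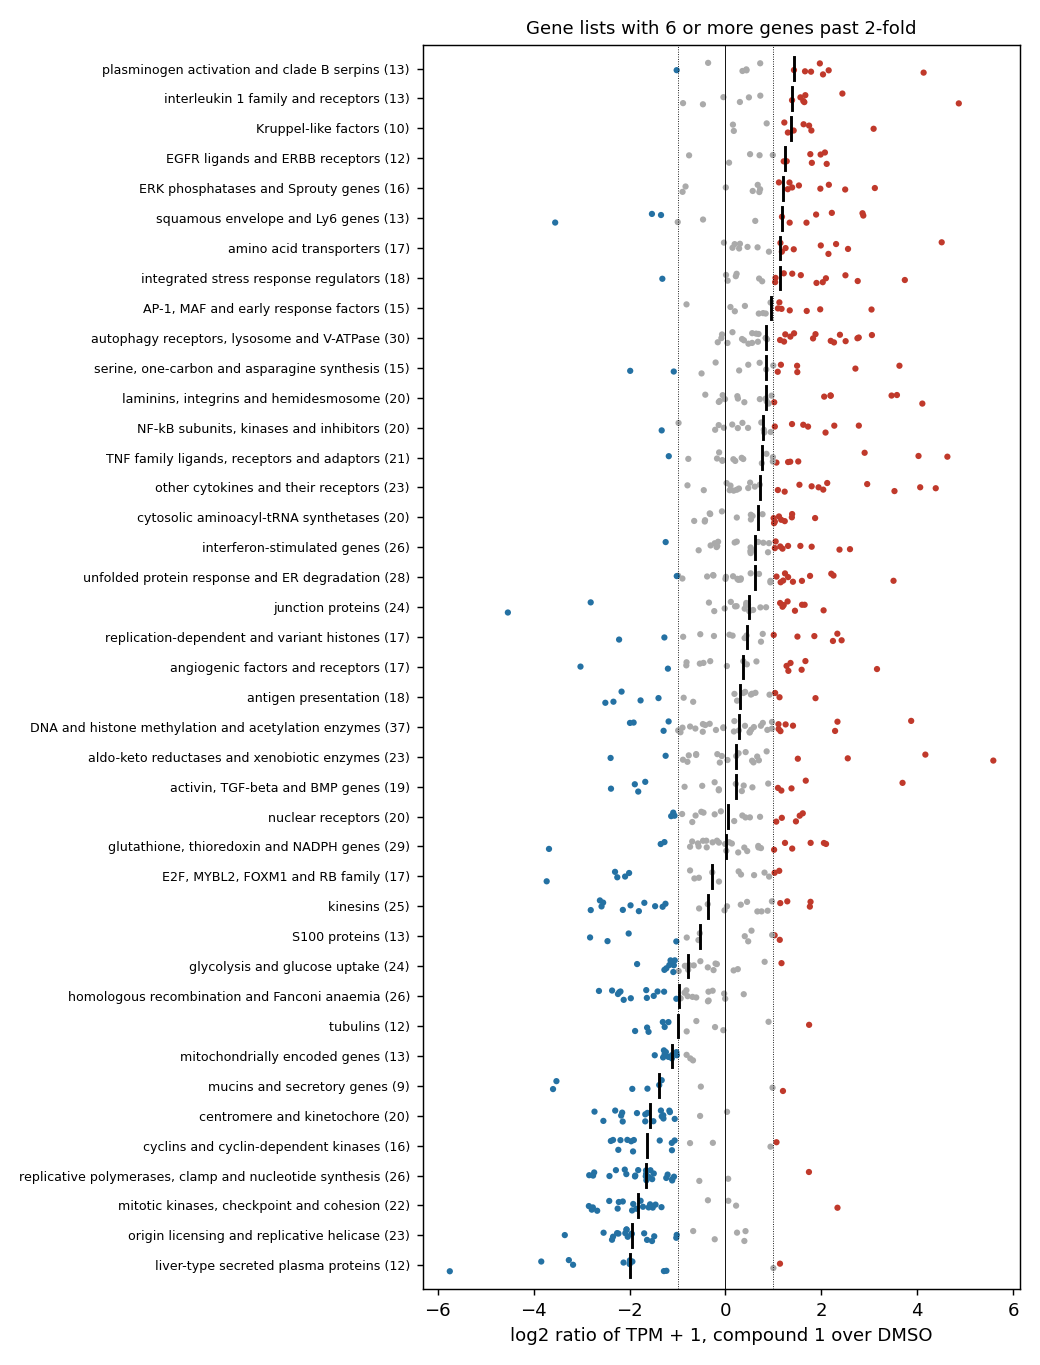
Log2 ratios of TPM + 1, compound 1 over DMSO, for the measured members of 41 gene lists with 6 or more members past 2-fold, 1 point per gene (red at least 2-fold higher, blue at least 2-fold lower, grey within 2-fold), with the list median as a black bar and the number measured in brackets. Medians run from 1.43 for plasminogen activation and clade B serpins at the top to -2.0 for liver-type secreted plasma proteins at the bottom.

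Amino acid stress genes were higher in most of their steps: sensors and factors, synthesis, tRNA charging and uptake. In the integrated stress response, in which phosphorylated eIF2 favours translation of ATF4, 11 of 18 measured genes were at least 2-fold higher and 1 was lower (median 1.13). SESN2, a leucine sensor, was at 103 TPM after compound 1, against 6.82 TPM in DMSO (log2 ratio 3.74), and CHAC1, which degrades glutathione, at 60.8 TPM after compound 1, against 8.14 TPM in DMSO (log2 ratio 2.76). DDIT3, the factor CHOP, was at 98.7 TPM after compound 1, against 16.6 TPM in DMSO (log2 ratio 2.50), and 32% of its 31-base words are shared with other annotated transcripts. PPP1R15A, the phosphatase subunit that reverses eIF2 phosphorylation, was at 263 TPM after compound 1, against 63.7 TPM in DMSO (log2 ratio 2.03). ATF5 was the 1 lower gene, at 12.9 TPM after compound 1, against 33.7 TPM in DMSO (log2 ratio -1.32).

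In serine, one-carbon and asparagine synthesis, CTH, which makes cysteine from cystathionine, was at 137 TPM after compound 1, against 10.2 TPM in DMSO (log2 ratio 3.63). ASNS, asparagine synthetase, was at 394 TPM after compound 1, against 59.3 TPM in DMSO (log2 ratio 2.71), and 83% of its 31-base words occur in another annotated gene. Single genes of one-carbon metabolism lay on both sides. MTHFD2, mitochondrial, was at 594 TPM after compound 1, against 209.7 TPM in DMSO (log2 ratio 1.5). The cytosolic SHMT1 was at 40.8 TPM after compound 1, against 165 TPM in DMSO (log2 ratio -1.99). MTHFD1, also cytosolic, was at 73.3 TPM after compound 1, against 156 TPM in DMSO (log2 ratio -1.08). Counts were 6 higher and 2 lower of 15 (median 0.85). Of 20 cytosolic aminoacyl-tRNA synthetases, which load amino acids onto tRNA, 9 were at least 2-fold higher and 0 lower (median 0.67). The higher count was 6 under upper-quartile or median-of-ratios scaling and after removal of the length and GC trend. The largest values were those of WARS1 for tryptophan, at 525 TPM after compound 1, against 143 TPM in DMSO (log2 ratio 1.87), MARS1 for methionine, at 644 TPM after compound 1, against 245 TPM in DMSO (log2 ratio 1.39), and GARS1 for glycine, at 811 TPM after compound 1, against 310.2 TPM in DMSO (log2 ratio 1.38).

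Amino acid transporters were at least 2-fold higher in 9 of 17, with 0 lower (median 1.15). SLC7A11, the cystine importer, was at 77.2 TPM after compound 1, against 2.44 TPM in DMSO (36.9 TPM after compound 2). SLC38A2, a neutral amino acid importer, was at 283 TPM after compound 1, against 47.3 TPM in DMSO (log2 ratio 2.56), SLC38A1 at 268 TPM after compound 1, against 59.7 TPM in DMSO (log2 ratio 2.15) and the glycine transporter gene SLC6A9 at 29.4 TPM after compound 1, against 5.15 TPM in DMSO (log2 ratio 2.31). The members within 2-fold, 8 in all, lay between log2 ratios of -0.03 for SLC7A2 and 0.91 for SLC7A1.

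The unfolded protein response, which adjusts folding and degradation in the endoplasmic reticulum, had members well above DMSO. DNAJB9, a co-chaperone, was at 69.2 TPM after compound 1, against 5.19 TPM in DMSO (log2 ratio 3.50), and HERPUD1, of the degradation complex, at 235 TPM after compound 1, against 48.4 TPM in DMSO (log2 ratio 2.25). ERN1, the sensor IRE1, was at 12 TPM after compound 1, against 1.82 TPM in DMSO (log2 ratio 2.21), and SEL1L, the adaptor of the ligase, at 33.9 TPM after compound 1, against 9.29 TPM in DMSO (log2 ratio 1.76). CRELD2, a folding factor, was lower, at 21.2 TPM after compound 1, against 43.9 TPM in DMSO (log2 ratio -1.02). Of 28 measured members 11 were at least 2-fold higher and 1 lower, and 6 and 0 after removal of the length and GC trend.

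Autophagy and lysosome genes were at least 2-fold higher in 14 of 30, with 0 lower (median 0.85). Each of the 5 measured cargo receptors was higher, with log2 ratios from 1.35 to 2.78. SQSTM1, the receptor p62, was at 1876 TPM after compound 1, against 278 TPM in DMSO (log2 ratio 2.75), and OPTN, optineurin, at 28.8 TPM after compound 1, against 3.33 TPM in DMSO (log2 ratio 2.78). CTSL, the lysosomal protease cathepsin L, was at 1197 TPM after compound 1, against 143 TPM in DMSO (log2 ratio 3.05). ULK1, the kinase that starts autophagosome formation, was at 32.6 TPM after compound 1, against 4.91 TPM in DMSO (log2 ratio 2.51), and GABARAPL1, a membrane tag of the autophagosome, at 101 TPM after compound 1, against 20.2 TPM in DMSO (log2 ratio 2.26).

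Redox and detoxification genes were mixed. AKR1C2 and AKR1C1, aldo-keto reductases of steroids and carbonyls, were at 62.6 TPM after compound 1, against 0.324 TPM in DMSO, and at 54.1 TPM after compound 1, against 2.07 TPM in DMSO; compound 2 gave 23.9 and 13.8 TPM. They share 63.5% and 35.5% of their 31-base words with other genes, each being nearest in sequence to the other, which leaves the split between them uncertain. GCLM and GCLC, the subunits of glutamate cysteine ligase, the first step of glutathione synthesis, were at 148 TPM after compound 1, against 42.6 TPM in DMSO (log2 ratio 1.78) and at 73.6 TPM after compound 1, against 27.4 TPM in DMSO (log2 ratio 1.39). BACH1, a repressor of antioxidant genes, was at 39.1 TPM after compound 1, against 8.38 TPM in DMSO (log2 ratio 2.10). GPX2, a glutathione peroxidase of epithelia, was lower, at 5.57 TPM after compound 1, against 83.2 TPM in DMSO (2.18 TPM after compound 2). Counts were 6 higher and 3 lower of 29 in the glutathione, thioredoxin and NADPH list (median 0.02), with 1 lower after removal of the trend. In the xenobiotic list 4 were higher and 2 lower of 23, which is near the 14.7% and 8.09% of all genes, and CYP1A1, an enzyme induced by aryl hydrocarbons, was at 4.73 TPM after compound 1, against 29.1 TPM in DMSO (log2 ratio -2.40).

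In iron handling 5 of 14 were at least 2-fold higher and 0 lower, and 3 higher after removal of the trend, with a pseudocount of 5, or under either other scaling. HMOX1, which frees iron from heme, was at 55.7 TPM after compound 1, against 10.1 TPM in DMSO (log2 ratio 2.36), and IREB2, an iron sensor, at 27.8 TPM after compound 1, against 9.66 TPM in DMSO (log2 ratio 1.43). TFRC, the transferrin receptor, had a log2 ratio of -0.67. FTH1 shares 51% of its 31-base words with other genes, the pseudogene FTH1P10 being the closest. Metallothioneins and zinc transporters were higher in 5 of 12 (3 after removal of the trend, 2 with a pseudocount of 5), among them MT1X at 174 TPM after compound 1, against 47.2 TPM in DMSO (log2 ratio 1.86) and the zinc exporter gene SLC30A1 at 21.3 TPM after compound 1, against 8.17 TPM in DMSO (log2 ratio 1.28). In polyamine metabolism 1 of 12 passed 2-fold, the transporter gene ATP13A3, at 83.5 TPM after compound 1, against 28.1 TPM in DMSO (log2 ratio 1.54).

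Most genes of the cell division lists were lower. In 9 lists that cover the cell cycle, DNA replication, chromosome segregation and DNA repair, 193 genes were measured, and 123 of them were at least 2-fold lower and 9 higher. They made up 27.4% of the 190 genes at least 4-fold lower and 0.368% of the 272 genes at least 4-fold higher, beside 1.66% of all measured genes. In a bulk library, fewer dividing cells and less of these transcripts per cell cannot be told apart.

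Among cyclins and their kinases, 12 of 16 were at least 2-fold lower (median -1.64). CCNA2, the cyclin of S and G2 phase, was at 11.7 TPM after compound 1, against 63.6 TPM in DMSO (log2 ratio -2.34), and CCNB1, the mitotic cyclin, at 83.9 TPM after compound 1, against 387 TPM in DMSO (log2 ratio -2.19). CDK1, the mitotic kinase, was at 17.9 TPM after compound 1, against 88.1 TPM in DMSO (log2 ratio -2.23), and PKMYT1, which holds CDK1 inactive, at 10.4 TPM after compound 1, against 58.7 TPM in DMSO (log2 ratio -2.39). CCND1, cyclin D1 of early G1, was the 1 gene at least 2-fold higher, at 295 TPM after compound 1, against 141 TPM in DMSO (log2 ratio 1.06). It lay just past 2-fold, and 0 of the list were higher under either other scaling or after removal of the trend.

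The CDK inhibitors lay on both sides. CDKN1A, p21, was at 349 TPM after compound 1, against 23.2 TPM in DMSO (328 TPM after compound 2), and CDKN2B, p15, at 20 TPM after compound 1, against 3.84 TPM in DMSO (log2 ratio 2.11). CDKN2C, p18, was at 1.17 TPM after compound 1, against 10.4 TPM in DMSO (log2 ratio -2.40), and CDKN3, a phosphatase that acts on CDKs, at 28.4 TPM after compound 1, against 123 TPM in DMSO (log2 ratio -2.08). The other 3 measured, CDKN1B, CDKN2A and CDKN2D, lay within 2-fold. In the E2F and RB group, MYBL2 (ENSG00000101057, chromosome 20, 43667019 to 43716496), the B-MYB factor of late cell cycle genes, was at 19.6 TPM after compound 1, against 273 TPM in DMSO (41.5 TPM after compound 2). FOXM1 was at 45.8 TPM after compound 1, against 229.8 TPM in DMSO (log2 ratio -2.30), and the activator E2F1 at 10 TPM after compound 1, against 51.6 TPM in DMSO (log2 ratio -2.26). E2F8 was at 3.21 TPM after compound 1, against 17 TPM in DMSO (log2 ratio -2.09). With E2F2 that made 5 of 17 lower, while E2F3 and RB1 were higher, with log2 ratios of 1.12 and 1.03. Under either other scaling 1 was higher, and with a pseudocount of 5 or after removal of the trend 0 were.

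Licensing of replication origins, the loading of the MCM helicase in G1, was lower in 18 of 23 genes and higher in 0 (median -1.96). All 6 subunits MCM2 to MCM7 were at least 2-fold lower, with log2 ratios from -2.34 to -1.53 and a summed level of 282 TPM after compound 1 and 1217 TPM in DMSO. All 4 GINS subunits were lower, from -3.35 for GINS2 to -1.02. The loading factors CDC6 and CDT1 were at 32.6 TPM after compound 1, against 172 TPM in DMSO, and at 9.98 TPM after compound 1, against 51.6 TPM in DMSO. The origin recognition complex differed between subunits: ORC1 was at 10.3 TPM after compound 1, against 64.5 TPM in DMSO (log2 ratio -2.54) and ORC6 at 22.2 TPM after compound 1, against 94.3 TPM in DMSO (log2 ratio -2.04), whereas the other 4 subunits lay between -0.22 and 0.42.

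DNA synthesis genes were at least 2-fold lower in 23 of 26 (median -1.65). TK1, thymidine kinase, was at 32 TPM after compound 1, against 236 TPM in DMSO (log2 ratio -2.84), and TYMS, thymidylate synthase, at 23 TPM after compound 1, against 162 TPM in DMSO (log2 ratio -2.76). RRM2, the S phase subunit of ribonucleotide reductase, was at 44.3 TPM after compound 1, against 302 TPM in DMSO (log2 ratio -2.74). Its paralogue RRM2B was the 1 gene at least 2-fold higher, at 33.8 TPM after compound 1, against 9.43 TPM in DMSO (log2 ratio 1.74). PCNA, the sliding clamp, was at 80 TPM after compound 1, against 394 TPM in DMSO (log2 ratio -2.28), and the clamp loader subunits RFC2 to RFC5 lay between -1.66 and -1.56. Counting the clamp loader, the polymerases and the nucleotide enzymes, only RFC1, at 0.06, and POLE3, at -0.55, lay within 2-fold.

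Mitotic genes were lower to a like degree. Centromere and kinetochore genes were at least 2-fold lower in 18 of 20 (median -1.57), led by CENPM at 6.08 TPM after compound 1, against 46 TPM in DMSO (log2 ratio -2.73) and ZWINT at 22.5 TPM after compound 1, against 136 TPM in DMSO (log2 ratio -2.55). CENPA, the histone variant that marks centromeres, was at 8.68 TPM after compound 1, against 41.8 TPM in DMSO. Mitotic kinase, checkpoint and cohesion genes were lower in 18 of 22 (median -1.82). BIRC5, survivin, was at 9.49 TPM after compound 1, against 74.6 TPM in DMSO (log2 ratio -2.85), CDCA8, borealin, at 10.8 TPM after compound 1, against 62.2 TPM in DMSO (log2 ratio -2.42), and AURKB, the kinase of the same complex, at 32.8 TPM after compound 1, against 229 TPM in DMSO (log2 ratio -2.77). PLK1 was at 23.6 TPM after compound 1, against 156 TPM in DMSO (log2 ratio -2.68), while PLK3, a stress-responsive relative, was at least 2-fold higher, at 38 TPM after compound 1, against 6.72 TPM in DMSO (log2 ratio 2.34).

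Of 12 kinesins with a part in mitosis 11 were at least 2-fold lower, with a group median of -1.89, and KIF20A, needed for cytokinesis, was the lowest, at 7.08 TPM after compound 1, against 55.7 TPM in DMSO (log2 ratio -2.81). Of 10 kinesins that carry cargo 4 were at least 2-fold higher and 0 lower, with a group median of 0.86. Over all 25 measured kinesins 4 were higher, against 1 after removal of the trend and 2 with a pseudocount of 5, while 11 and 8 were lower. The highest of the cargo carriers was KIF5B, at 129.6 TPM after compound 1, against 37.2 TPM in DMSO (log2 ratio 1.77). Tubulins were lower in 6 of 12 and higher in 1 (median -1.0): TUBB was at 412 TPM after compound 1, against 1282 TPM in DMSO (log2 ratio -1.63) and TUBB4B at 535 TPM after compound 1, against 1629 TPM in DMSO (log2 ratio -1.60). Of the 31-base words of TUBA1B, 40% occur in other annotated genes.

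Histone genes also split. The variants H2AX and H2AZ1, whose transcripts carry poly(A) tails, were lower, at 33.6 TPM after compound 1, against 160.2 TPM in DMSO, and at 283 TPM after compound 1, against 685 TPM in DMSO. Of the replication-dependent genes, 6 of 8 measured were at least 2-fold higher and 0 lower, with a summed level of 313 TPM after compound 1 and 87.9 TPM in DMSO. H2AC18 was at 75.3 TPM after compound 1, against 13.2 TPM in DMSO (log2 ratio 2.42), H2AC6 at 92.3 TPM after compound 1, against 18.7 TPM in DMSO (log2 ratio 2.24) and H2BC4 at 37.4 TPM after compound 1, against 6.62 TPM in DMSO (log2 ratio 2.33). H2AC18 has a near-identical copy, H2AC19, so its value is uncertain. Transcripts of such genes normally lack poly(A) tails, and how RNA was selected for the libraries is not given in the sources used here.

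Checkpoint and repair genes were lower in part. ATR itself was at 15.5 TPM after compound 1, against 10.3 TPM in DMSO (log2 ratio 0.55), and CHEK1, its effector kinase, at 27.8 TPM after compound 1, against 48.7 TPM in DMSO (log2 ratio -0.79), both within 2-fold. The longest ATR transcript has 8249 bases, and measured genes with transcripts from 7593 bases had a median log2 ratio of 0.59, near that of ATR. TOPBP1, which activates ATR, was at 19.9 TPM after compound 1, against 28.4 TPM in DMSO (log2 ratio -0.49). ATRIP, the partner that brings ATR to DNA, was at 4.05 TPM after compound 1, against 13.7 TPM in DMSO (log2 ratio -1.54), and 31% of its 31-base words are shared, with TREX1 the closest gene. CLSPN, the mediator between ATR and CHK1, was at 3.47 TPM after compound 1, against 11.8 TPM in DMSO (log2 ratio -1.52). In the ATR and fork protection list, 5 of 18 were at least 2-fold lower and 0 higher (median -0.72). After removal of the length and GC trend 8 were lower, with the CHEK1 log2 ratio at -1.25 and the TOPBP1 log2 ratio at -1.21.

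Homologous recombination and Fanconi anaemia genes were at least 2-fold lower in 13 of 26 and higher in 0 (median -0.98), and lower in 20 after removal of the trend. EXO1, the end-resecting nuclease, was at 5.80 TPM after compound 1, against 41.4 TPM in DMSO (log2 ratio -2.64), and UBE2T, the ubiquitin enzyme of the Fanconi pathway, at 36.6 TPM after compound 1, against 177 TPM in DMSO (log2 ratio -2.24). FANCA was at 5.20 TPM after compound 1, against 27.8 TPM in DMSO (log2 ratio -2.22) and RAD54L at 7.29 TPM after compound 1, against 36.8 TPM in DMSO (log2 ratio -2.19). PALB2 and BRCA2, by comparison, had log2 ratios of -0.03 and -0.27.

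In the BCL2 family 4 of 16 were at least 2-fold higher (25%, beside 14.7% of all genes) and 1 lower (6.25%, beside 8.09%). The family median was 0.27, and -0.03 without the abundance filter. The cell death genes BBC3 (PUMA) and PMAIP1 (NOXA) were among the 4 higher. BBC3 was at 10.2 TPM after compound 1, against 1.35 TPM in DMSO (log2 ratio 2.26). PMAIP1 was at 92.6 TPM after compound 1, against 33.2 TPM in DMSO (log2 ratio 1.45). BIK, a promoter of cell death, was at 243 TPM after compound 1, against 56 TPM in DMSO (log2 ratio 2.10), and BCL2A1, a survival gene that NF-kB induces, at 155 TPM after compound 1, against 62.8 TPM in DMSO (log2 ratio 1.29). BAD was the 1 lower gene, at 15.3 TPM after compound 1, against 35 TPM in DMSO (log2 ratio -1.15). Caspase genes lay mostly within 2-fold, with 3 higher and 1 lower of 19 and 1 and 1 after removal of the trend. Those shares, 15.8% higher and 5.26% lower before that removal, are near the 14.7% and 8.09% of all genes. XIAP, a caspase inhibitor, was at 72.1 TPM after compound 1, against 12 TPM in DMSO (log2 ratio 2.50), and CASP6 at 18.3 TPM after compound 1, against 50.3 TPM in DMSO (log2 ratio -1.41).

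Energy metabolism genes tended to be lower. All 13 mitochondrially encoded genes had a negative ratio, from -1.48 for MT-CYB to -0.68 for MT-CO1, and 10 were at least 2-fold lower (4 after removal of the trend). MT-CO3 was at 4221 TPM after compound 1, against 10177 TPM in DMSO, with 5774 TPM after compound 2. MT-CO2 was at 3286 TPM after compound 1, against 7499 TPM in DMSO, with 4479 TPM after compound 2. Nuclear genes of complex I and cytochrome oxidase were lower by less, with a median of -0.50. Of these 29 genes 1 was at least 2-fold lower (3.45%, beside 8.09% of all genes). Mitochondrial ribosomal proteins had 4 of 34 at least 2-fold lower (11.8%, near the 8.09% of all genes), and 0 after removal of the trend. Their median was -0.47. Both lists thus stood below the median of all genes, by less than the mitochondrially encoded genes.

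In glycolysis 9 of 24 were at least 2-fold lower and 1 higher (median -0.79). PGAM1, phosphoglycerate mutase, was at 376 TPM after compound 1, against 912 TPM in DMSO (log2 ratio -1.27), PGK1, phosphoglycerate kinase, at 1110.4 TPM after compound 1, against 2611 TPM in DMSO (log2 ratio -1.23), and ALDOC at 9.51 TPM after compound 1, against 36.7 TPM in DMSO (log2 ratio -1.84). PFKFB2, which makes an activator of glycolysis, was the 1 higher gene, at 10.7 TPM after compound 1, against 4.2 TPM in DMSO (log2 ratio 1.17). GAPDH was at 11816 TPM after compound 1, against 16988 TPM in DMSO, with 12233 TPM after compound 2. ENO1, enolase 1, was at 3022 TPM after compound 1, against 5948 TPM in DMSO (log2 ratio -0.98), and TPI1, triosephosphate isomerase, at 2134 TPM after compound 1, against 4809 TPM in DMSO (log2 ratio -1.17), with 3070.2 and 2353 TPM after compound 2. In cholesterol synthesis 3 of 23 were at least 2-fold lower and 0 higher (5 lower under either other scaling).

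General machinery of the cell stayed mostly within 2-fold. All 37 proteasome subunits did, with a median of -0.0039, and so did the 31 actin cytoskeleton and focal adhesion genes, with a median of 0.18. The 30 splicing factors did as well (median -0.24), although 10 were at least 2-fold lower after removal of the trend. Among 26 chaperonin and heat shock genes DNAJB4 was higher, at 1.6, and HSPE1 lower, at -1.21; the 8 subunits of the CCT chaperonin lay between -0.51 and 0.07. Ribosome biogenesis had 1 higher (TAF1D) and 1 lower (FBL) of 24. In translation initiation 3 of 26 were at least 2-fold higher (0 after removal of the trend), the largest being EIF5 at 363 TPM after compound 1, against 144 TPM in DMSO (log2 ratio 1.33).

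Epithelial genes lay on both sides of DMSO. Keratins were lower in 4 of 8 (2 after removal of the trend) and higher in 0: KRT18, the partner of KRT8, was at 1956 TPM after compound 1, against 4428 TPM in DMSO (log2 ratio -1.18), and KRT80 at 27.9 TPM after compound 1, against 144 TPM in DMSO (log2 ratio -2.32). Junction genes were higher in 8 of 24 (4 after removal of the trend) and lower in 2. CLDN1, a claudin of tight junctions, was at 50.1 TPM after compound 1, against 11.4 TPM in DMSO (log2 ratio 2.05), and OCLN, occludin, at 49 TPM after compound 1, against 14.9 TPM in DMSO (log2 ratio 1.65). GJB1, the connexin 32 gene, was at 0.537 TPM after compound 1, against 34.7 TPM in DMSO (0.385 TPM after compound 2), and CLDN2, a claudin of leaky junctions, at 0.306 TPM after compound 1, against 8.16 TPM in DMSO (log2 ratio -2.81). Squamous envelope genes were higher in 7 of 13 (4 with a pseudocount of 5), with PI3, the elastase inhibitor elafin, at 182 TPM after compound 1, against 23.9 TPM in DMSO (log2 ratio 2.87) and SPRR1B, a precursor of the cornified envelope, at 69.9 TPM after compound 1, against 8.78 TPM in DMSO (log2 ratio 2.86). The 3 lower members, LY6D, LY6K and LY6E, are neighbours in 1 cluster of GPI-anchored surface proteins, and LY6D was at 44 TPM after compound 1, against 526 TPM in DMSO (32 TPM after compound 2).

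S100 genes, which encode small calcium-binding proteins, were split as well. S100A6 was at 5549.8 TPM after compound 1, against 2532 TPM in DMSO (log2 ratio 1.13), with 4974 TPM after compound 2, whereas S100A9, a subunit of calprotectin, was at 193 TPM after compound 1, against 1066 TPM in DMSO (log2 ratio -2.46) and S100A7, psoriasin, at 2.76 TPM after compound 1, against 25.6 TPM in DMSO (log2 ratio -2.82). Counts were 2 higher and 4 lower of 13 (median -0.53). After removal of the trend they were 4 and 3 (median 0.04), and among 9 genes that averaged 5 TPM or more 2 and 2 (median 0.40), so the balance depends on these steps. Among genes of epithelial-mesenchymal transition, VIM, vimentin, was at 122 TPM after compound 1, against 23.6 TPM in DMSO (log2 ratio 2.32) and ZEB1, a repressor of epithelial genes, at 4.15 TPM after compound 1, against 0.277 TPM in DMSO (log2 ratio 2.01), but ESRP1, an epithelial splicing factor, was also higher, at 179 TPM after compound 1, against 84.8 TPM in DMSO (log2 ratio 1.07). TGFBI, a matrix protein that TGF-beta induces, was the 1 lower member, at 266 TPM after compound 1, against 991 TPM in DMSO (log2 ratio -1.89). CDH1, E-cadherin, had a log2 ratio of 0.58.

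Mucins and secretory genes were at least 2-fold lower in 6 of 9 (median -1.38): MUC5B, a gel-forming airway mucin, was at 5.30 TPM after compound 1, against 71.6 TPM in DMSO (4.77 TPM after compound 2), and OLFM4, a secreted glycoprotein, at 12.2 TPM after compound 1, against 158 TPM in DMSO (9.13 TPM after compound 2). SPDEF, a factor of goblet cells, was at 2.32 TPM after compound 1, against 11.8 TPM in DMSO (log2 ratio -1.94), and AGR2, a disulphide isomerase of mucin cells, was the 1 higher member, at 262 TPM after compound 1, against 113 TPM in DMSO (log2 ratio 1.20). In the lung lineage list 3 of 11 were lower and 1 higher (median -0.36), so most of its members lay within 2-fold. LPCAT1, which makes surfactant lipid, was at 78.2 TPM after compound 1, against 489 TPM in DMSO (log2 ratio -2.63), and NKX2-1, the lineage factor TTF-1, at 8.74 TPM after compound 1, against 19.9 TPM in DMSO (log2 ratio -1.10). ABCA3, the surfactant lipid pump, was the 1 higher gene, at 10.2 TPM after compound 1, against 1.72 TPM in DMSO (log2 ratio 2.04).

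Plasma protein genes usually made by liver were lower in 10 of 12 (median -2.0). The lower count was 6 with a pseudocount of 5 or among genes that averaged 5 TPM or more. Without the abundance filter, among members above 0 in either library, 10 of 20 were lower and 1 higher (median -0.88). FGB, the fibrinogen beta chain (ENSG00000171564, chromosome 4, 154562956 to 154571086), had the lowest ratio of all genes, at 1.65 TPM after compound 1, against 141 TPM in DMSO (log2 ratio -5.75), with 1.81 TPM after compound 2. FGG, the gamma chain, was at 1.01 TPM after compound 1, against 18.4 TPM in DMSO (0.241 TPM after compound 2), and FGA, the alpha chain, was listed at 0 after compound 1 and at 3.36 TPM in DMSO. SERPINA6, corticosteroid-binding globulin, was at 0.656 TPM after compound 1, against 22.7 TPM in DMSO (0.753 TPM after compound 2). CFI, a regulator of complement, was at 6.75 TPM after compound 1, against 69.2 TPM in DMSO (5.00 TPM after compound 2). CFB, which drives complement activation, was higher, at 240.4 TPM after compound 1, against 109 TPM in DMSO (log2 ratio 1.14), with 78% of its 31-base words shared. The complement genes in this list therefore lay on both sides.

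Other genes with ratios among the 20 lowest were ERP27, a protein of the endoplasmic reticulum, at 1.97 TPM after compound 1, against 78.2 TPM in DMSO, and EPN3, an epsin of endocytosis, at 0.811 TPM after compound 1, against 33.5 TPM in DMSO. P2RY6, a receptor for UDP, was at 2.27 TPM after compound 1, against 37 TPM in DMSO, and FOLR1, a folate receptor, at 1.18 TPM after compound 1, against 16.8 TPM in DMSO. EFEMP1, a matrix glycoprotein, was at 2.54 TPM after compound 1, against 35 TPM in DMSO, SLC17A3 at 0.219 TPM after compound 1, against 11.1 TPM in DMSO, and FAM83D, a spindle protein, at 10.2 TPM after compound 1, against 93.3 TPM in DMSO. After compound 2 these 7 genes stood at 2.78, 0.875, 4.59, 1.86, 3.32, 0.481 and 19 TPM. CYP26A1, which breaks down retinoic acid, was listed at 0 after compound 1 and at 5.91 TPM in DMSO.

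Among the 20 highest ratios of genes above 0 in DMSO, several genes belong to none of the groups above. IGFBP1, which binds insulin-like growth factors (ENSG00000146678, chromosome 7, 45888357 to 45893668), was at 458 TPM after compound 1, against 31.5 TPM in DMSO, and compound 2 gave 69 TPM. THBD, thrombomodulin, was at 198 TPM after compound 1, against 12.7 TPM in DMSO (108 TPM after compound 2). TRPV3, a heat-sensitive cation channel of keratinocytes, was at 20.5 TPM after compound 1, against 0.302 TPM in DMSO (19.4 TPM after compound 2). LURAP1L was at 33.5 TPM after compound 1, against 0.733 TPM in DMSO and MAST4, a kinase, at 46.5 TPM after compound 1, against 2.21 TPM in DMSO, with 17 and 62.3 TPM after compound 2. Of the genes listed at 0 in DMSO, SCNN1D, a sodium channel subunit, was at 10.8 TPM after compound 1. Another 3 genes listed at 0 in DMSO, DEFB103A (52.2 TPM), ZBED6 (7.55 TPM) and COMMD3-BMI1 (5.67 TPM), share 100%, 94.4% and 96.0% of their 31-base words with other genes, so these values cannot be assigned to 1 gene.

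Immune recognition genes differed by class. All 5 measured genes of MHC class II and its loading, from CD74 at 1.53 TPM after compound 1, against 5.67 TPM in DMSO to HLA-DRA at 0.796 TPM after compound 1, against 8.07 TPM in DMSO, were at least 2-fold lower, with a summed level of 5.28 TPM after compound 1 and 36.1 TPM in DMSO. The 5 class I heavy chain genes had log2 ratios from 0.38 to 1.04, and HLA-B was at 78.9 TPM after compound 1 and 38 TPM in DMSO. TAP1, the peptide transporter of class I, was at 38.6 TPM after compound 1, against 17.1 TPM in DMSO. The 5 immunoproteasome genes measured lay between -0.87 and -0.35. The class II genes were low, and among genes that averaged 5 TPM or more, none of the list was at least 2-fold lower.

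Interferon-stimulated genes were higher in 9 of 26 and lower in 1 (median 0.62; 5 higher with a pseudocount of 5). IFI44L was at 155 TPM after compound 1, against 24.8 TPM in DMSO (log2 ratio 2.60), ISG20, an RNA-degrading enzyme, at 45.4 TPM after compound 1, against 7.94 TPM in DMSO (log2 ratio 2.38), and IFIH1, a sensor of double-stranded RNA, at 25.6 TPM after compound 1, against 8.0 TPM in DMSO (log2 ratio 1.56). OASL was lower, at 5.10 TPM after compound 1, against 13.5 TPM in DMSO (log2 ratio -1.25), and ISG15 and IFIT1 had log2 ratios of -0.22 and -0.17. In the list of immune checkpoint ligands 4 of 13 were at least 2-fold higher (30.8%, beside 14.7% of all genes) and 0 lower (median 0.001). Under either other scaling 3 were higher and 1 lower, and after removal of the trend 3 and 2. With a pseudocount of 5 the higher count was 3. CD274, which encodes PD-L1, was at 43.4 TPM after compound 1, against 12.4 TPM in DMSO (log2 ratio 1.72). The list also holds CD55, which blocks complement, at 168 TPM after compound 1, against 24.4 TPM in DMSO (log2 ratio 2.73).

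In TGF-beta and related signalling 5 of 19 were higher and 4 lower, against 2 and 3 with a pseudocount of 5 and 3 and 5 after removal of the trend. INHBA, the activin A subunit, was at 13.4 TPM after compound 1, against 0.115 TPM in DMSO (log2 ratio 3.69), whereas the ID genes, which BMP signals induce, were lower: ID1 was at 149.6 TPM after compound 1, against 531 TPM in DMSO (log2 ratio -1.82) and ID3 at 20.4 TPM after compound 1, against 111 TPM in DMSO (log2 ratio -2.39). YAP and TEAD genes were higher in 5 of 16 (3 with a pseudocount of 5 or after removal of the trend) and lower in 0, with AMOTL2 at 33.7 TPM after compound 1, against 11.6 TPM in DMSO (log2 ratio 1.46) and YAP1 at 107 TPM after compound 1, against 43.7 TPM in DMSO (log2 ratio 1.27), while CCN1, a target of YAP, had a log2 ratio of -0.59. Angiogenic genes were higher in 6 of 17 and lower in 2, from ESM1 at 9.91 TPM after compound 1, against 0.221 TPM in DMSO (log2 ratio 3.16) to FGFBP1, an FGF carrier, at 3.90 TPM after compound 1, against 38.9 TPM in DMSO (log2 ratio -3.02). In the receptor tyrosine kinase list without EGFR, the 3 measured FGF receptor genes FGFR1, FGFR3 and FGFR4 were the 3 lower members, at log2 ratios of -1.01, -1.81 and -1.59 (1 lower with a pseudocount of 5), and IGF1R, at 1.15, was the 1 higher.

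Chromatin enzymes were higher in 8 of 37 and lower in 4, and 3 and 6 after removal of the trend, so their balance depends on that step. KDM7A, a histone demethylase, was at 19.7 TPM after compound 1, against 0.414 TPM in DMSO (18.9 TPM after compound 2), HDAC9 at 96 TPM after compound 1, against 18.2 TPM in DMSO (log2 ratio 2.34), and UHRF1, which brings DNMT1 to newly copied DNA, at 15.3 TPM after compound 1, against 63.9 TPM in DMSO (log2 ratio -1.99). Nuclear receptors had 5 higher and 3 lower of 20 (2 higher and 0 lower after removal of the trend), among them HNF4G at 43.7 TPM after compound 1, against 13.6 TPM in DMSO (log2 ratio 1.61) and RARA, a retinoic acid receptor, at 16.3 TPM after compound 1, against 36.9 TPM in DMSO (log2 ratio -1.13). Clock genes had 3 of 14 higher (21.4%, beside 14.7% of all genes, and 2 with a pseudocount of 5 or after removal of the trend), with BMAL2 at 334 TPM after compound 1, against 81.4 TPM in DMSO (log2 ratio 2.02). Notch and Wnt genes, with 1 higher and 2 lower of 21, and ephrins and Eph receptors, with 0 of 11 either way, had few members past 2-fold.

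Some of these genes sit side by side. On chromosome 2, from 112773915 to 113134016 (GRCh38), the interleukin 1 cluster holds IL1A, IL1B, IL37, IL36G, IL36B and IL1RN, each at least 2-fold higher, with no other measured gene between them. The length of this run rests on the filter, since IL37, IL36G and IL36B were at 0 in DMSO. On chromosome 10, from 3775996 to 5458463, the run was KLF6, AKR1C1, AKR1C2, AKR1C3 and NET1, with the sequence sharing of the AKR1C genes named above. The longest run, 8 genes from DUSP6 to NUDT4 on chromosome 12 (89347232 to 93408146), had log2 ratios from 1.06 to 2.48 and included POC1B-GALNT4, a readthrough that overlaps its neighbours. Across the nuclear chromosomes, the share at least 2-fold higher ran from 6.41% on chromosome 16 to 26.6% on chromosome 18, and the share lower from 5.29% on chromosome 13 to 13.5% on chromosome 22.

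Promoter sequence was searched for 9 short motifs known to bind factors of these pathways. RefSeq promoter windows (GRCh38.p14, 250 bases before to 50 after the gene start) were matched to 9458 of the 11600 genes, and both strands were read. The motifs were AP-1 (TGANTCA), CRE (TGACGTCA), kappa B, the core of the antioxidant response element (TGACNNNGC), the core of the amino acid response element (TGATGNAA), E2F (TTTNNCGC), the cell cycle homology region CHR (TTTGAA), the CCAAT box (CCAAT) and the TATA box (TATAAA), and matches of different motifs may overlap. The 6 windows below are shown because they hold the motifs whose shares differ most below, in genes described above, with the motif letters in capitals. MMP10 and MMP7 are shown as a pair because both hold an AP-1 match 67 bases before the start, followed by a TATA box 31 and 30 bases before it, and yet had opposite ratios.
MMP10 (chr11:102780579-102780878, minus strand; capitals AP-1 and TATA box): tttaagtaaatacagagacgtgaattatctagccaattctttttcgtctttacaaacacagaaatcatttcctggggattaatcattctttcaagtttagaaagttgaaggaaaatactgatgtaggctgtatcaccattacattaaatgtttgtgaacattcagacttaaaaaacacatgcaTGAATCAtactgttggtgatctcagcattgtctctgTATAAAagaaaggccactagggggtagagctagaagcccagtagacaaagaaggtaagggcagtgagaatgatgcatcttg
MMP7 (chr11:102530698-102530997, minus strand; capitals AP-1 and TATA box): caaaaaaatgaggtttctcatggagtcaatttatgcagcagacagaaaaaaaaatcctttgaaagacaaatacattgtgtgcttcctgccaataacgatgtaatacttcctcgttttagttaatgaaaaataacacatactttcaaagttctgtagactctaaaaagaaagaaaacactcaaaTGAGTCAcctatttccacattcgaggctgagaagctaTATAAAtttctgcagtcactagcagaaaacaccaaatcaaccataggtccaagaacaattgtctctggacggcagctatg
SPRR1B (chr1:153030953-153031252, plus strand; capitals AP-1): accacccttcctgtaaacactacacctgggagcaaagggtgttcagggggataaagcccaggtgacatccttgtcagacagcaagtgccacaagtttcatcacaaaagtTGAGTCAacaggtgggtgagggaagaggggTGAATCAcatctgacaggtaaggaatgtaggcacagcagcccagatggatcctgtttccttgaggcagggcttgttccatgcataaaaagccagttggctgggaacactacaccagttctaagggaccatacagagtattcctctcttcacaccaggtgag
ASNS (chr7:97872359-97872658, minus strand; capitals amino acid response element core): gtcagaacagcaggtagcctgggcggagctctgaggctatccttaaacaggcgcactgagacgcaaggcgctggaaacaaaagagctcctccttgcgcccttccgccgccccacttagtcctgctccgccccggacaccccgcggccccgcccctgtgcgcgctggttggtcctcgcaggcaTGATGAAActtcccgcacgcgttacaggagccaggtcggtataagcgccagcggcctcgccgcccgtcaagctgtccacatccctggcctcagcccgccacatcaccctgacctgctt
MCM7 (chr7:100101348-100101647, minus strand; capitals E2F and CCAAT box): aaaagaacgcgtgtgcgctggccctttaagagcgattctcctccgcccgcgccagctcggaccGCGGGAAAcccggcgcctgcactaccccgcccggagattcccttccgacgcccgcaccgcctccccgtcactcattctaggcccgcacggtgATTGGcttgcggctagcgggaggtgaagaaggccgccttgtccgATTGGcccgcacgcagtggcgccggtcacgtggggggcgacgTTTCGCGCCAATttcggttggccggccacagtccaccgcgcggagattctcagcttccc
CDCA8 (chr1:37692266-37692565, plus strand; capitals CHR and CCAAT box, which overlap at the third CCAAT match): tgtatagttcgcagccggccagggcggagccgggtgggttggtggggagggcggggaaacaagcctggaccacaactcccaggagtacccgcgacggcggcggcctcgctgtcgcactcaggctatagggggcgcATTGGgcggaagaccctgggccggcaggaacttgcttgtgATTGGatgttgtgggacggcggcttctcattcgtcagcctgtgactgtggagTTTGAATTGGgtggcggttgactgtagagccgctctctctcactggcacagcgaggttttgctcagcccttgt

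AP-1 and TATA box matches were more frequent in promoters of genes at least 4-fold higher than in those of all measured genes. AP-1 letters were in 13.1% of 222 promoters of genes at least 4-fold higher and in 6.26% of 1406 at least 2-fold higher, beside 4.48% of all 9458 and 7.76% of all 27305 RefSeq windows. TATA box letters were in 14.4% of the 4-fold higher set, beside 5.36% of all measured genes and 11.95% of all RefSeq windows. In promoters of genes at least 4-fold lower, of which 144 were matched, CCAAT letters were in 58.3%, CHR in 26.4% and E2F in 18.1%, beside 37.1%, 9.47% and 10.9% of all measured genes. Over all RefSeq windows these shares were 35.7%, 15.4% and 6.90%. The core of the antioxidant response element was in 20.8% of the 4-fold lower set and 17.6% of the 4-fold higher set, beside 15.3% of all measured genes. Median promoter GC content was 62% in the 4-fold lower set, 65% in the 4-fold higher set and 65.3% over all measured genes. Kappa B matches, at 12.6% of the 4-fold higher set and 13% of all, and CRE matches, at 3.60% and 3.42%, were about as frequent in both.

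By gene list, E2F letters were in 11 of 20 promoters of origin licensing genes and in 10 of 23 of DNA synthesis genes. CHR letters were in 9 of 17 promoters of mitotic kinase and checkpoint genes, 8 of 16 of centromere genes and 10 of 22 of kinesins, but in 1 of 20 of origin licensing genes. The amino acid response element core was in 6 of 16 promoters of aminoacyl-tRNA synthetases, beside 1.65% of all. In the NF-kB list 7 of 17 promoters held a kappa B match, and 5 of 7 did among chemokines, where ratios lay on both sides. A match is a description of letters in this window and does not show that a factor bound there.

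**Figure D4:**
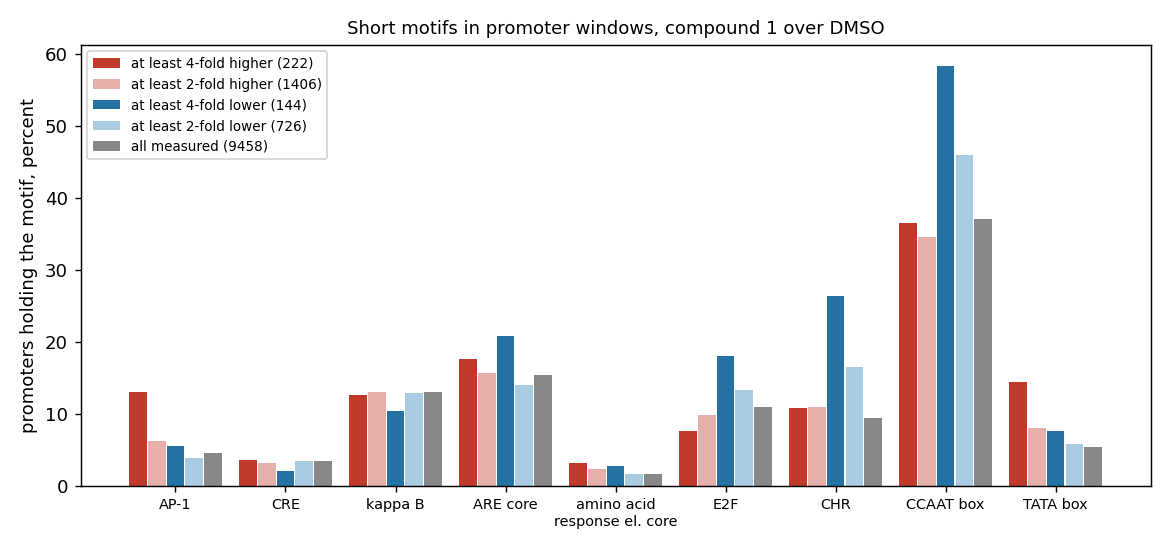
Percent of promoter windows that hold each of 9 motifs, for genes at least 4-fold higher after compound 1 (222 promoters), at least 2-fold higher (1406), at least 4-fold lower (144), at least 2-fold lower (726) and all measured genes (9458). AP-1 and the TATA box are tallest in the 4-fold higher set, and E2F, CHR, the CCAAT box and the core of the antioxidant response element (ARE) in the 4-fold lower set.

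The ratios differed with transcript length and base composition. The genes were put into 10 bins of like size by each measure. In the bin of shortest transcripts, up to 1601 bases, 7.35% passed 2-fold on the higher side and 13.1% on the lower, and in the bin of longest ones, from 7593 bases, 31% were higher and 3.03% lower. In the bin with the lowest GC content 34.8% were higher and 2.68% lower, and in the bin with the highest 5.11% were higher and 13.5% lower. The part of length and GC content in the results for single genes was not tested beyond the subtraction whose counts are given above.

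**Figure D5:**
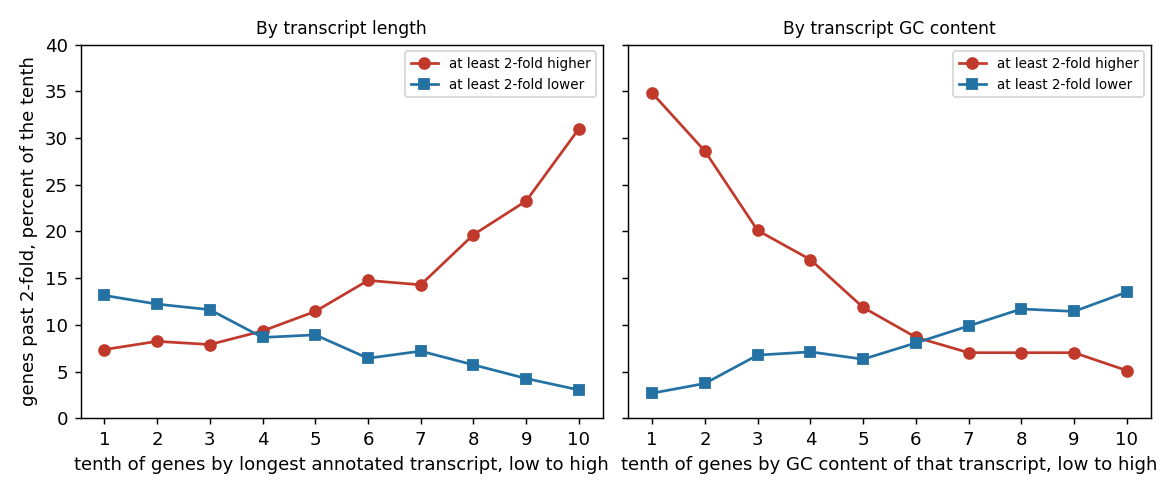
Percent of genes at least 2-fold higher (red) and at least 2-fold lower (blue) after compound 1, in 10 bins of genes ordered by the length (left) and the GC content (right) of the longest annotated transcript. The higher share climbs from 7.35% to 31% with length and drops from 34.8% to 5.11% with GC content.

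Set directly against compound 2, compound 1 had fewer genes past 2-fold than against DMSO. Of the 11600 genes, 11502 (99.2%) lay within 2-fold between the 2 compound libraries, 64 (0.552%) were at least 2-fold higher after compound 1 and 34 (0.293%) at least 2-fold lower. WNK4, a kinase that regulates ion transport, was at 14.9 TPM after compound 1 and 1.24 TPM after compound 2. IGFBP1 was at 458 and 69 TPM in the same order, a log2 ratio of 2.71, and AMMECR1L at 130.3 and 21.9 TPM. On the other side IL6, an acute phase cytokine, was at 15.9 TPM after compound 1 and 57.6 TPM after compound 2, and CXCL3 at 40.9 and 116 TPM. WNK4, AMMECR1L, IL6 and CXCL3 were picked after their values were seen. Both compounds were at 5 μM for 24 h, the pair of libraries has no replicate, and how the 2 molecules differ in structure is not stated in the labels.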

How the data were processed

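Messenger RNA of HCC827 cells was sequenced in 3 libraries, 1 per condition, from Trizol-extracted RNA and an Illumina TruSeq kit, per the labels' protocols. The table deposited by the authors heads its columns as FPKM, but each column sums to 1000000, so the values were read as TPM. Bowtie 0.12.2 and the builds GRCh38.p12 and mm8 are listed in the submitters' processing notes, without their roles. The counting step, its annotation and its use of strand are not given in the sources used here, so overlapping and antisense genes cannot be told apart.

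Log2 ratios of TPM + 1 were computed for genes averaging 1 TPM or more across the 3 libraries, with Python 3.11.15, NumPy 2.4.6 and pandas 2.3.3, and plotted with Matplotlib 3.10.9. With 1 library per group no test was made. The ratio step was run on simulated read counts as a check of the calculation. These counts hold no variation between libraries beyond read sampling, so they cannot show the replicate error. Of the gene IDs, 20113 were found in GENCODE 29 and 219 were not. Transcript length, GC content, positions and the share of 31-base words found in other genes come from that annotation. Depth was estimated from the step size of low values, of which 52.2% (compound 1) and 51.4% (DMSO) lay within 0.1 read of a whole number, so it is approximate.

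Named genes are the 20 largest and 20 smallest ratios among genes above 0 in DMSO, the 10 largest gains and losses, genes at 0 in 1 library and at 5 TPM or more in the other, up to 6 members per list by size of ratio, and ATR, ATRIP, CHEK1, TOPBP1 and EGFR. Other members, such as the only gene on 1 side of a list (CCND1, PLAT, TRAF2) or genes given for comparison (CDH1, CXCL5, ERBB2), were named after their values were seen. Some genes and lists that these rules name are not reported here. The gene lists and motifs were chosen with earlier results of these data known. Both compounds were set against the same DMSO library, so their ratios to it are not independent.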

Additional observations from a re-analysis of the deposited data

How the results depend on the processing

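In all, 10 alternatives were tried for the counts of genes past 2-fold. With a pseudocount of 5 the counts were 985 higher and 560 lower, and after removal of the length and GC trend 973 were higher, beside 1707 and 939 as reported. With the other alternatives the counts stayed within 1.5 times those reported, including upper-quartile scaling (1485 higher and 1100 lower) and median-of-ratios scaling (1482 and 1103), which put the median log2 ratio at 0.03 in place of 0.11. Single values were followed for 72 genes, named by ratio, by gain or loss, or by a 0 in 1 library. ATR, ATRIP, CHEK1, TOPBP1 and EGFR were included, and genes named only as list members were not. Of 705 values for these 72 genes, 693 kept their side of 2-fold, 7 no longer passed it and 5 newly passed it. Direction was followed only for those of the 72 that were past 2-fold as reported, and 0 of those changed it. For genes within 2-fold a change of sign was not counted. Of 679 list counts, 47 moved by over 1.5 times, 18 of them after removal of the trend and 17 with a pseudocount of 5. The cause was not tested. No paired analysis was possible because each condition has 1 library. Low genes rest on few reads, and no replicate error can be given.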
